A study of Mus musculus with 6 samples.

Results

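The genes described here are 7 nuclear genes for proteins that mark mitochondria for removal, or that work beside such proteins: Bnip3, Bnip3l, Mgarp, Fundc1, Pink1, Bcl2l13 and Phb2. They are 7 of 21448 genes in the table, found by their symbols, and all 7 passed the filter on low values that left 10533 genes for testing (the mean of the 6 values had to reach 1). Bnip3, Bnip3l and Mgarp were chosen from their measured difference between the same 2 groups that are compared below, and the others were set beside them for their function with the results known. Their differences between the groups are therefore given as descriptions, with no p-value, and the number of them called by each fit is printed only beside the share of all genes and supports nothing.

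RNA came from primary lymphoma B cells of mice carrying the E mu-Myc transgene, in which an enhancer of the immunoglobulin heavy chain locus drives Myc in B lineage cells. All 6 libraries carry this transgene, 3 labelled wild type and 3 labelled PRDM15 knockout. The cells were cultured with IL7, and 4-hydroxytamoxifen (OHT) at 50 nM for 24 hours was the means of deleting Prdm15, with ethanol for the controls, followed by collection after 3 days. Each title gives only the group and a replicate number, so that the knockout libraries had OHT is inferred, and effects of OHT and of deletion cannot be told apart. The labels give neither the driver of the recombinase nor the age of the mice, and they do not say how many tumours the cells came from. The series calls its replicates biological without saying whether they are mice, tumours or cultures, and the p-values cover only how far these libraries differ, part of which may be technical. The title of the series names PRDM15 and the metabolism of B cells, so the question is which metabolic genes differ after its loss.

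Mitophagy is the removal of mitochondria by autophagosomes. In its receptor arm, proteins of the mitochondrial surface bind LC3 and GABARAP proteins of the autophagosome membrane directly. BNIP3 and its relative BNIP3L (NIX) are such receptors in the outer membrane, and both genes are textbook targets of HIF1, which switches on genes under low oxygen. In the ubiquitin arm, the kinase PINK1 gathers on damaged mitochondria and recruits the ubiquitin ligase Parkin.

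Promoter entries for 6 of the 7 genes were found in the RefSeq table, and none for Bnip3l. The build was GRCm38.p6, later than the mm9 named for the reads. The sequences of Bnip3, Mgarp and Fundc1 are shown because the first 2 belong to genes with far lower levels in the libraries labelled knockout, and the third to a receptor whose levels overlapped between the groups. Each is the 250 bases before the annotated start, 5′ to 3′ on the gene's strand, with capitals for the core of the HIF binding motif, ACGTG or GCGTG, on either strand. They lie on the minus strand at chr7:138909507-138909756 (Bnip3), chr3:51396548-51396797 (Mgarp) and chrX:17572008-17572257 (Fundc1).
Bnip3: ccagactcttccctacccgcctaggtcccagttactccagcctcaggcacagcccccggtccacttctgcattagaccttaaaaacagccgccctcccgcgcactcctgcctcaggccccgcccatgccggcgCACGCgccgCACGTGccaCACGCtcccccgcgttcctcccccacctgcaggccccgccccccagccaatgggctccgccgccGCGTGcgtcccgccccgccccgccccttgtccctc
Mgarp: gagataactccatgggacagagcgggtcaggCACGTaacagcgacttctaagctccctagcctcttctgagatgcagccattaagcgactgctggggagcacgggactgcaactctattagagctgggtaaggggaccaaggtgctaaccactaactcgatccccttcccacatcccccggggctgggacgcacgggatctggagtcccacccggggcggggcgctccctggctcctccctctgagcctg
Fundc1: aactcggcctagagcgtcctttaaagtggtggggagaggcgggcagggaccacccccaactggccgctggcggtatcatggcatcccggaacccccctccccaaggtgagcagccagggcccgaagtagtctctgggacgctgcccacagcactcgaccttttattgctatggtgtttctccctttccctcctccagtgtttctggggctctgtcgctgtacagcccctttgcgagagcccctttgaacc

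The Bnip3 window held 5 matches, 2 of ACGTG and 3 of GCGTG. The 2 ACGTG matches are the 2 strands of a single palindromic stretch and overlap, between 108 and 103 bases before the start. Of 32851 promoter windows of this length, 16.6% held ACGTG, 28.2% held GCGTG, 38.6% held either and 1.01% held 5 or more matches. The Bnip3 window was 72.4% G or C and that of Mgarp 61.6%. The Mgarp window held 1 match, 219 to 215 bases before the start. Pink1, Bcl2l13 and Phb2 held 1 match each and Fundc1 held 0, which says only that these letters are not in this window. The Fundc1 window holds an ATG with an open reading frame that runs into GTGAGC, the letters of a splice donor. It may thus lie inside the gene, past another start, and its 0 is not a contrast to the other windows. Among promoters of the tested genes, 57.2% held at least 1 match, more than the 38.6% of all windows. The share with 5 or more matches was taken over all windows only, so it is not a matched share for tested genes.

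Values are reads per gene scaled to a common effective library size (RPM), on libraries of 28852951 to 47255421 reads assigned to genes. All 10 B lineage markers were detected, with Cd79b, a subunit of the B cell receptor, at 458 ± 64.3 in wild type and 472 ± 40.1 in the libraries labelled knockout. Their median log2 change was -0.16, from -1.15 (Cd22) to 0.24 (Ebf1). Summed levels of 17 myeloid markers were 61.7 to 223 in the wild type libraries, and 38.9, 2238 and 1205 in knockout replicates 1, 2 and 3. Markers of red cell precursors, which clear mitochondria through BNIP3L, summed to 1.02 to 1.78 in wild type and 0.703 to 1.83 in the libraries labelled knockout over 8 genes, with the globin gene Hba-a1 at 0 in 4 of 6 libraries. T cell markers summed to 26.8 to 91.8 and 19.2 to 82.7 over 8 genes, most of it Lck, and markers of fibroblasts and endothelium to 52.3 to 63.4 and 57.9 to 103 over 8 genes, most of it Pecam1. Prdm15 itself ranged from 29.2 to 47.3 in wild type and from 39.2 to 40.9 in the libraries labelled knockout. Reads summed over all exons cannot tell if 1 exon is missing, so which group lacks Prdm15 is taken from the labels alone.

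Bnip3 (ENSMUSG00000078566) had the lowest ratio of the 7 genes between the groups (mean of the libraries labelled knockout over wild type 0.123), followed by Mgarp (0.244). Its wild type libraries held 274.8, 155.8 and 116.8 RPM (replicates 1 to 3), and those labelled knockout held 22.5, 21.6 and 23.0 in the same order. Every wild type library lay above every library labelled knockout, and the wild type libraries differed widely among themselves while the others were nearly level. The means were 182.5 ± 82.3 and 22.4 ± 0.682 (SD, n = 3), a level 87.7% lower. The log2 change was -2.88 ± 0.63 (SD over 3 pairs of equal replicate number), and it was -3.55, -2.79 and -2.30 in pairs 1, 2 and 3. Log2 changes here are of the value plus 1, which understates those of low genes. Among the 10533 tested genes, 2 had a lower log2 change.

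Bnip3l (ENSMUSG00000022051), the other outer membrane receptor of the family, was at 200.3, 189.8 and 133.7 in wild type and at 55.5, 64.3 and 53.5 in the libraries labelled knockout. The groups did not overlap. The means were 174.6 ± 35.8 and 57.8 ± 5.76, a level 66.9% lower, with log2 changes of -1.83, -1.55 and -1.31 in pairs 1, 2 and 3. A processed copy, Bnip3l-ps, is listed separately and held 4 to 37 reads per library, 0.240% to 0.489% of the reads of Bnip3l. How reads that fit both were counted is not given in the sources used here.

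The 2 relatives did not move in proportion. The ratio of Bnip3 to Bnip3l reads per kilobase was 2.34, 1.40 and 1.49 for the wild type and 0.690, 0.573 and 0.731 for the libraries labelled knockout, in order of replicate number. Bnip3 was thus the more abundant of the 2 per length in every wild type library and the less abundant in every library labelled knockout. Without length the ratio was 1.37, 0.821 and 0.873 for the wild type and 0.405, 0.336 and 0.429 for the others. Which of the 2 was higher in wild type replicates 2 and 3 therefore rested on the exon lengths. Those are GENCODE M21 exon unions, which may differ from the annotation used for counting. The summed level of Bnip3 and Bnip3l went from 475, 346 and 250 to 78.0, 86.0 and 76.5 RPM.

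Mgarp (ENSMUSG00000037161) encodes a mitochondrial protein that is induced by HIF1 and takes part in the movement of mitochondria in neurons; it is not a mitophagy receptor. It was at 17.02, 16.8 and 23.0 in wild type and at 2.30, 4.17 and 7.42 in the libraries labelled knockout. The groups did not overlap, and here the libraries labelled knockout were the more variable. The means were 18.9 ± 3.48 and 4.63 ± 2.59, a level 75.6% lower, with log2 changes of -2.45, -1.79 and -1.51 in pairs 1, 2 and 3. Counts were low, with 69 reads in knockout replicate 1, where the exact 95% Poisson interval of the value was 1.79 to 2.90. That interval lay below those of replicates 2 (3.56 to 4.85) and 3 (6.62 to 8.29), so that counting alone does not cover their spread.

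Fundc1 (ENSMUSG00000025040), an outer membrane receptor that is controlled by phosphorylation in hypoxia, was at 25.03, 28.1 and 40.7 in wild type and at 24.6, 33.4 and 39.7 in the libraries labelled knockout. The groups covered the same range, and libraries of the same number lay close together. Its log2 change was 0.06 ± 0.16.

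Pink1 (ENSMUSG00000028756), the kinase of the ubiquitin arm, was at 32.4, 21.3 and 32.2 in wild type and at 23.1, 22.3 and 35.7 in the libraries labelled knockout. It was lower in pair 1 (log2 change -0.47) and slightly higher in pairs 2 and 3 (0.06 and 0.15), and the groups overlapped.

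Bcl2l13 (ENSMUSG00000009112), an outer membrane protein of the BCL2 family that binds LC3, was at 60.8, 59.9 and 58.7 in wild type and at 49.4, 58.3 and 55.5 in the libraries labelled knockout. The groups did not overlap, by a narrow margin, with a level 9.04% lower. Its log2 changes of -0.29, -0.04 and -0.08 in pairs 1, 2 and 3 show that most of the difference came from pair 1.

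Phb2 (ENSMUSG00000004264), a scaffold of the inner membrane that can bind LC3 once the outer membrane has ruptured, was at 354.5, 352.0 and 316.1 in wild type and at 331.2, 372.8 and 316.3 in the libraries labelled knockout. The groups overlapped and its log2 change was -0.005 ± 0.09.

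**Figure D1:**
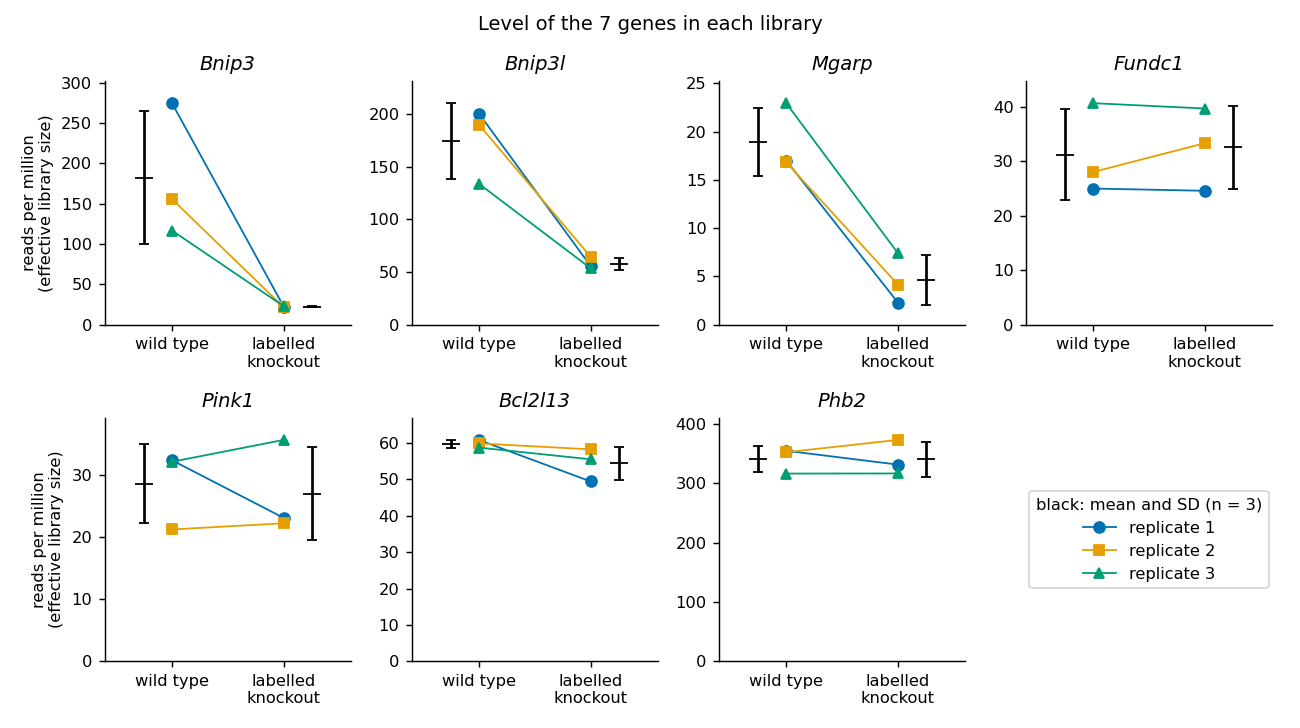
Level of each of the 7 genes (vertical axes from 0, RPM, on the effective library size) in the 6 libraries, where a line connects the 2 libraries of a pair and black bars give mean and SD of each group (n = 3). Bnip3 lay between 21.6 and 23.0 in the libraries labelled knockout and between 116.8 and 274.8 in wild type, while Fundc1, Pink1 and Phb2 overlapped between the groups.

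Bnip3, Bnip3l and Mgarp passed limma with the replicate number in the fit (adjusted p under 0.05), 3 of 7 genes, where 0.741% of all tested genes were called lower and 0.133% higher. Since these genes were chosen on this contrast, nothing is read from that count. Without the replicate number limma called 0 of the 7 and 0.00949% of all genes, a single gene, with 3 of the 7 and 428 of all genes at an unadjusted p under 0.05. edgeR with the replicate number called Bnip3 and Bnip3l but not Mgarp, with 0.323% of all genes called lower. edgeR without it called 0 of the 7 and 0 over all genes, with 3 and 582 at an unadjusted p under 0.05. DESeq2 called Bnip3, Bnip3l and Mgarp without the replicate number (0.75% of all genes lower) and with it (3.99% lower). With the replicate number, leaving out pair 2 or pair 3 left 0 of the 7 and 0 of all genes called in limma, with 3 of the 7 and 1415 or 1240 of all genes at an unadjusted p under 0.05. Leaving out pair 1 left 3 of the 7 and 840 of all genes called. Groups without overlap and lower in the libraries labelled knockout were seen for 4 of the 7 genes and for 6.29% of all tested genes. The share without overlap and higher was 3.21% of all tested genes, and none of the 7 was among them.

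In all 3 genes the difference was widest in pair 1 and narrowest in pair 3. For Bnip3 the wild type value was 12.2, 7.20 and 5.08 times the knockout value in pairs 1, 2 and 3, for Bnip3l 3.61, 2.95 and 2.50 times and for Mgarp 7.41, 4.04 and 3.09 times. Of all tested genes, 3152 were lower in every pair, and 773 of these (7.34% of all tested genes) had this same order of sizes.

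For Bnip3 this spread lay on the wild type side. Its coefficient of variation was 45.1% among the wild type libraries and 3.05% among those labelled knockout, against medians of 15.4% and 14.6% over all tested genes. Counting alone gives 3.21% to 3.85% for 676 to 969 Bnip3 reads, so the libraries labelled knockout differed by no more than counting error. A search made after these values were seen found 1 other tested gene, the glutaminase Gls2, with as wide a spread in wild type and as narrow a spread in the other group. For Mgarp the coefficient was 18.4% in wild type and 56.1% in the libraries labelled knockout.

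**Figure D2:**
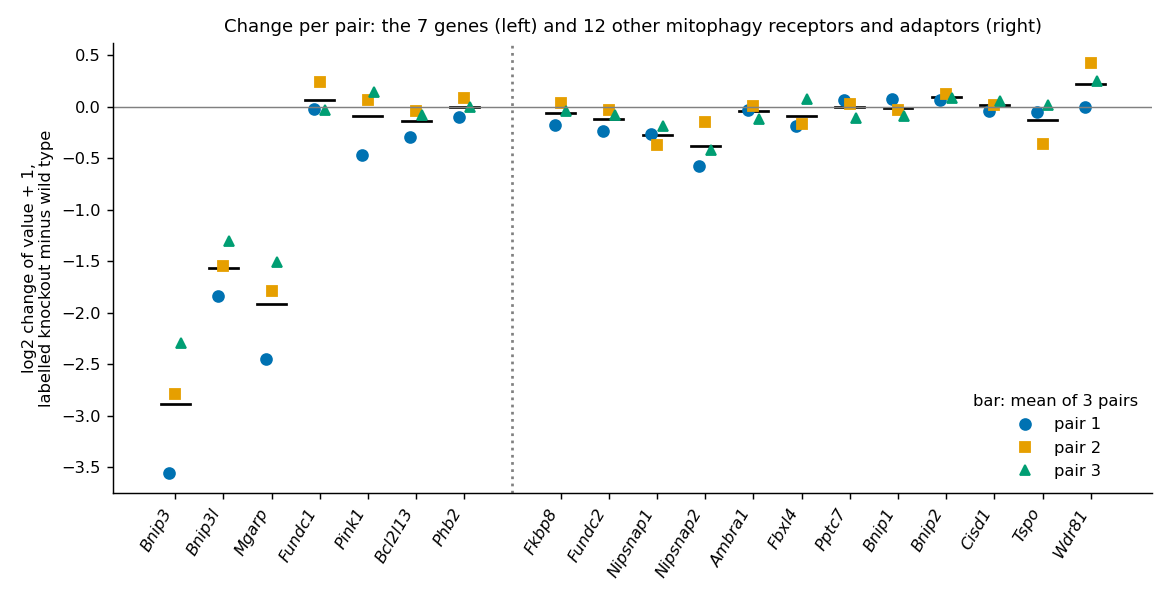
Difference in log2(value + 1), knockout label minus wild type (vertical axis), in each pair of equal replicate number, with a bar for the mean of the 3 pairs. The 7 genes are drawn beside 12 from a list of other mitophagy receptors, adaptors and related genes, not all of which are receptors or adaptors. Bnip3, Bnip3l and Mgarp lay between -3.55 and -1.31 in every pair, and the mean change of the other genes drawn lay between -0.38 and 0.23.

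Per kilobase of exon (GENCODE M21 exon union lengths, which may differ from the annotation used for counting), the order of the 7 genes changed between the groups. In wild type Phb2 (91.7 ± 5.78, the value divided by kilobases) and Bnip3 (80.6 ± 36.3) were highest and overlapped, followed by Bnip3l (45.2 ± 9.27), whose highest library, at 51.9, just passed the lowest of Bnip3, at 51.6. Fundc1 (13.3 ± 3.54), Pink1 (10.7 ± 2.38) and Mgarp (9.16 ± 1.68) lay below every Bnip3l value and overlapped among themselves. Bcl2l13 (6.58 ± 0.115) was lowest, below every Mgarp value.

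In the libraries labelled knockout Phb2 stayed at 91.5 ± 7.88 and stood alone. Bnip3l (14.98 ± 1.49), Fundc1 (13.8 ± 3.23), Pink1 (10.1 ± 2.81) and Bnip3 (9.87 ± 0.301) followed, each overlapping with its neighbour. Bcl2l13 (5.99 ± 0.498) and then Mgarp (2.24 ± 1.26) came last, with no overlap between these 2. In these libraries Bnip3 was thus at the level of Pink1, and in wild type well above it.

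Over the 6 libraries Bnip3 and Bnip3l followed each other closely (Pearson r = 0.98 on log2 values), as did Bnip3 and Mgarp less closely (0.87). Bnip3 had an r of 0.71 with Bcl2l13 and of -0.26, 0.19 and 0.13 with Fundc1, Pink1 and Phb2. These values largely restate the group difference. With each group's mean taken out, r was 0.73 between Bnip3 and Bnip3l, -0.22 between Bnip3 and Mgarp, and 0.87 between Mgarp and Fundc1. All points share the same 6 libraries and their normalization.

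The 8 genes most like Bnip3 over the 6 libraries, by the same measure, had r from 0.990 to 0.998 and included Rere, Hist1h1e, Lrig2, Clic4, Trappc6a, Ldha and Slc16a3. Their size of change was not alike. Rere, a nuclear corepressor, was at 111, 93.4 and 83.4 in wild type and at 54.8, 54.7 and 54.0 in the libraries labelled knockout, with a coefficient of variation of 14.6% in wild type and 0.766% in the other group. Its likeness to Bnip3 is what chose it. Ldha, lactate dehydrogenase, had a log2 change of -1.37 and Slc16a3, a lactate exporter, of -4.43, while Lrig2 changed by -0.17. With the group means taken out, the closest genes were Hsd17b10, Rere, Lrig2, Snapin and Mb21d1 (r of 0.99), of which Snapin hardly differed between the groups (log2 change 0.02).

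The other genes of the mitophagy pathway were described from lists, which are summarised by their counts and medians beside a median log2 change of -0.03 over all tested genes. Outside a list of HIF target genes, the lists held 146 tested genes, and 0 of them passed limma with the replicate number, with 24 at an unadjusted p under 0.05, against 2213 of the 10533 tested genes. Without the replicate number limma called 0 of them, with 6 at an unadjusted p under 0.05, against 428 of all. edgeR with the replicate number also called 0, with 27 at that level against 2174 of all. DESeq2 with it called 8 of them and 738 of all: Bcl2l1, Lonp1 and Egln1 were lower, and Vcp, Tax1bp1, Kif5b, Tomm70a and Epas1 higher. In the paragraphs on single lists, passing refers to limma with the replicate number. Their median log2 change was 0.01. Limma with the replicate number called 6 of them without pair 1 (2 lower, 4 higher), and 0 without pair 2 or pair 3.

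From a list of other mitophagy receptors, adaptors and related genes, 12 were tested and 0 passed (median log2 change -0.05, range -0.38 to 0.23). Not all of the 12 are receptors or adaptors, so the median does not describe receptors alone. Fkbp8, an outer membrane receptor that binds LC3, was at 206, 181 and 214 in wild type and at 183, 186 and 208 in the libraries labelled knockout, and the groups overlapped. Bnip2, which shares its name with the family but is not a mitophagy receptor, was at 117 ± 15.5 and 125 ± 16.5.

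In the ubiquitin arm 0 of 16 tested genes passed limma (median 0.03, range -0.20 to 0.32), and DESeq2 with the replicate number called 2, Vcp and Tax1bp1. Park2, the gene of Parkin, was not tested and reached at most 0.151 RPM in any library, so the ligase of this arm was near the limit of detection in all 6. Vcp, the segregase that pulls ubiquitinated proteins from the outer membrane, was at 403, 435 and 448 in wild type and at 458, 618 and 510 in the libraries labelled knockout. Its groups did not overlap, and with the replicate number it did not pass in limma (adjusted p = 0.162) and did in DESeq2 (0.00344). Tax1bp1, an autophagy adaptor that binds ubiquitin, was at 182, 188 and 187 and at 230.5, 206 and 235, with adjusted p = 0.136 in limma and 0.0125 in DESeq2. Park7 was at 220 ± 16.0 and 213 ± 14.6.

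Of the LC3 and GABARAP genes, 4 were tested and 0 passed (median 0.14). Map1lc3b was at 70.0, 51.8 and 60.3 in wild type and at 68.6, 55.8 and 65.5 in the matching libraries, and Gabarap was at 63.2 ± 9.63 and 70.1 ± 9.83. Gabarapl1, singled out after its values were seen, was at 0.641, 0.902 and 4.15 and at 0.399, 16.4 and 10.6. It was high in knockout replicates 2 and 3, the libraries with more myeloid transcripts, whose part in this value was not tested.

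Autophagosome formation genes (21 tested, median -0.02) and genes that act on FUNDC1 (10 tested, median 0.07) had 0 past the test. Becn1, a subunit of the lipid kinase complex that starts autophagosomes, was at 148 ± 14.9 and 149 ± 9.22, and Wipi2, which recruits the LC3 conjugation machinery, at 102 ± 1.13 and 107 ± 2.57. Csnk2a1, a subunit of the kinase CK2 that phosphorylates FUNDC1, was at 214 ± 24.1 and 223 ± 23.7.

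Fission and fusion genes (12 tested, median 0.02), transport genes (7 tested, median 0.05), the prohibitin complex with its proteases (12 tested, median 0.01), outer membrane pores and import (13 tested, median 0.01) and regulators of mitochondrial biogenesis (14 tested, median -0.08) had 0 past the test. Gabpa and Yy1, transcription factors of mitochondrial genes, were at 177 and 175 and at 122 and 128. The porin Vdac2 was at 363 ± 13.2 and 391 ± 27.9, the import receptor Tomm70a at 341 ± 8.24 and 380 ± 15.6, the fusion protein Opa1 at 149 ± 6.85 and 149 ± 1.13, and the cristae scaffold Immt at 294 ± 0.706 and 297 ± 16.4. Yme1l1, a protease of the inner membrane, was at 285 ± 8.58 and 292 ± 16.9. Trak2, an adaptor that couples mitochondria to motors, was at 110.3 ± 8.87 and 110.0 ± 4.04, and the motor Kif5b at 291 ± 110 and 336 ± 126. Kif5b had log2 changes of 0.24, 0.21 and 0.16 in pairs 1, 2 and 3, and with the replicate number its adjusted p was 0.137 in limma and 0.00309 in DESeq2. For Tomm70a, whose groups did not overlap, these were 0.188 and 0.0177. The matrix protease Lonp1 was at 210, 221 and 211 and at 174, 174 and 190, groups that did not overlap, with adjusted p = 0.133 in limma and 0.0483 in DESeq2, both with the replicate number.

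BNIP3 was first described as a protein that binds BCL2 relatives. Of 15 tested genes of that family 0 passed (median -0.07, range -0.69 to 0.47). The lowest was Bcl2l1, the survival protein BCL-XL, with adjusted p = 0.160 in limma and 0.0227 in DESeq2, both with the replicate number. Mcl1, a survival protein, was at 418, 243 and 262 in wild type and at 437, 259 and 267 in the libraries labelled knockout, so that libraries of the same number lay together. Bid, which promotes cell death, was at 78.9 ± 19.5 and 93.1 ± 33.9.

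Among 17 tested transcription factors and oxygen sensors linked to Bnip3 and Bnip3l, 0 passed (median -0.04, range -1.94 to 1.098). The oxygen sensor Egln1, named here after its values were seen, was at 93.1, 125 and 110 in wild type and at 62.9, 77.1 and 83.6 in the libraries labelled knockout, groups that did not overlap, with adjusted p = 0.0506 in limma and 1.9e-05 in DESeq2, both with the replicate number. Egln3, another sensor and also on the HIF target list, was at 34.4, 38.7 and 22.4 and at 1.73, 12.8 and 14.5, with no overlap and adjusted p = 0.172 and 0.183. Epas1, the oxygen-regulated subunit of HIF2, was at 0.641, 0.526 and 0.2996 and at 1.26, 5.67 and 1.11, low values without overlap, with adjusted p = 0.200 and 0.0190. Hif1a, the oxygen-regulated subunit of HIF1, was at 96.8, 141.6 and 133.9 in wild type and at 111.5, 147.8 and 129.7 in the libraries labelled knockout, and the groups overlapped. Its protein is controlled mainly after translation, which RNA levels do not show. Atf4, of the integrated stress response, was at 311 ± 14.4 and 309 ± 17.5.

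HIF target genes outside the 7 had lower values, which earlier results on these data had shown, so the list is not independent evidence. Of 19 tested, 7 fell in limma with the replicate number, 0 rose and 12 did not pass, and limma without the replicate number called 0. edgeR with the replicate number called 3 of them. Over all pathway lists DESeq2 called 9 genes without the replicate number, 1 of them outside this list. With it DESeq2 called 21, 8 of them outside. The median log2 change of the 19 was -1.27. In 13 of the 19 every library labelled knockout lay below every wild type library, against 6.29% of all tested genes. Slc16a3, a lactate exporter, fell from 166.9, 76.6 and 37.5 to 3.43, 3.49 and 1.54 (limma adjusted p = 0.0146 with the replicate number). Pgk1, a glycolytic kinase, fell from 1140.1, 791.3 and 531.8 to 186, 217 and 166, Ldha from 3764, 2921 and 2414 to 1145, 1274 and 1055, and Aldoa, an aldolase, from 2284, 1823 and 1403 to 519, 771 and 492 (limma adjusted p = 0.0313, 0.0313 and 0.0414). edgeR with the replicate number did not call Aldoa (adjusted p = 0.0545). Fam162a, a mitochondrial protein and HIF target named outside the rule, fell from 173.7, 112.5 and 93.0 to 51.6, 51.2 and 47.7 (limma adjusted p = 0.0455), and edgeR did not call it (0.0669). Like Bnip3, it varied in wild type and was nearly level in the libraries labelled knockout.

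The order of the wild type libraries was shared too. Bnip3 was highest in wild type replicate 1 and lowest in wild type replicate 3, as were 10 of the 19 HIF target genes, 29 of the other 146 pathway genes (19.9%) and 15.4% of all tested genes. Of the 7 genes, 4 had this order: Bnip3, Bnip3l, Bcl2l13 and Phb2. Bcl2l13 and Phb2 had log2 changes between the groups of only -0.14 and -0.005. Mgarp did not have the order and was highest in wild type replicate 3. Of the 19 HIF target genes, 13 were lower in every pair, with the difference widest in pair 1 and narrowest in pair 3. Over all tested genes 3152 were lower in every pair, and 773 of these had this order. The 7.34% given above counts all tested genes, most of them not lower in every pair. It is therefore not a matched share for a list of lower genes.

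**Figure D3:**
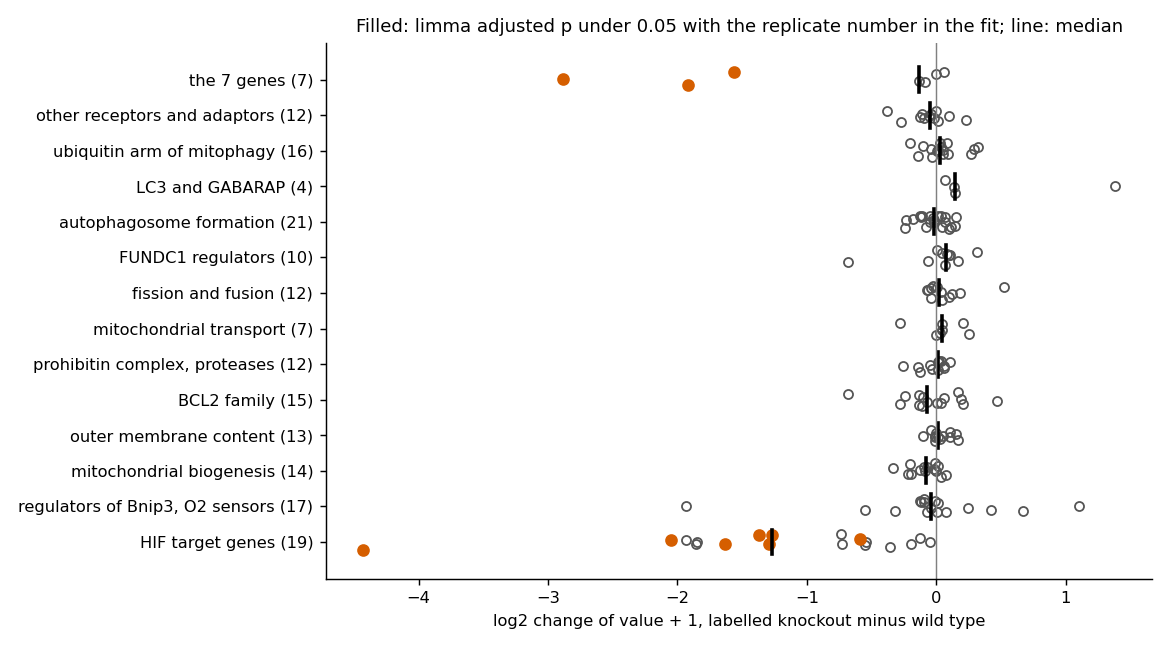
Difference in log2(value + 1), knockout label minus wild type (horizontal axis), for each tested gene of the 7 and of 13 pathway lists (number tested in brackets); filled symbols mark a limma adjusted p under 0.05 with the replicate number, and black lines the medians. The HIF target list had a median of -1.27 and held 7 filled symbols, and the other lists held 0.

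Myeloid transcripts differed between the libraries labelled knockout, so the values were set beside them. Of 15 tested myeloid markers, 3 were higher in pair 1 and 15 in each of pairs 2 and 3. Lyz2, the lysozyme of macrophages, was at 20.4, 124 and 86.0 in wild type and at 10.7, 1471 and 820.3 in the libraries labelled knockout. The calcium-binding protein gene S100a9, of granulocytes, was at 0.047 or less in every library. In pair 1, where the summed markers were 61.7 and 38.9, Bnip3 went from 274.8 to 22.5, Bnip3l from 200.3 to 55.5 and Mgarp from 17.02 to 2.30. Without knockout replicates 2 and 3 the log2 changes over the remaining libraries were -2.87, -1.61 and -2.58, and those of Fundc1, Pink1, Bcl2l13 and Phb2 were -0.30, -0.27, -0.27 and -0.04. In bulk RNA, fewer cells of a type and less RNA per cell cannot be told apart.

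**Figure D4:**
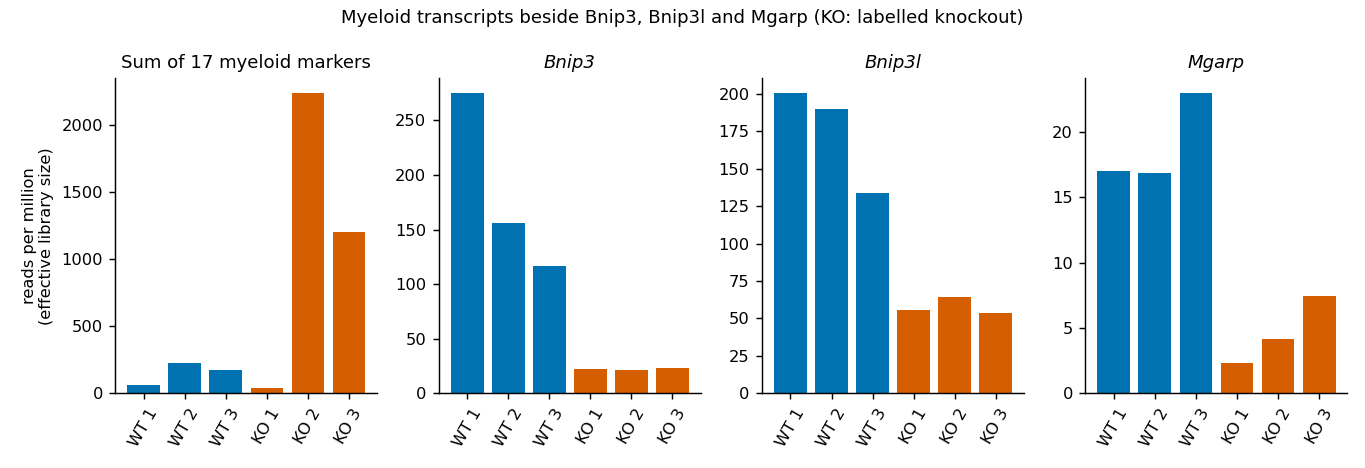
Summed level of 17 myeloid markers and level of Bnip3, Bnip3l and Mgarp (vertical axes from 0, RPM, on the effective library size) in each library, blue for wild type and orange for labelled knockout. The marker sum was 38.9 in knockout replicate 1 and 2238 and 1205 in replicates 2 and 3, while Bnip3 stayed between 21.6 and 23.0 in the 3 libraries.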

How the data were processed

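RNA-seq values of 6 libraries, 3 per group, were used as deposited. Per the submitters' processing notes, STAR 2.4.2a, HTSeq, CASAVA, edgeR and the mm9 build were used, with no role or order named. Libraries were directional, per the labels' protocols; the gene annotation and how strand was counted: not given in the sources used here. In the deposited table the authors give a signal, which is each gene's reads over an effective library size. The table calls them FPKM, but they are whole multiples of a single step per library (tolerance 0.01 reads, 100% of values), so they hold no gene length.

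Genes with a mean of at least 1 were tested with limma on log2(value + 1), trended prior, two-sided, with Benjamini-Hochberg adjustment over all 10533 and a threshold of 0.05. Fits with the replicate number as a block, and edgeR and DESeq2 on the recovered reads, were alternatives. Deviations from group means correlated at 0.73, 0.73 and 0.84 between libraries of equal number, so libraries of equal number were treated as pairs, from the data and not from the labels, and paired calls are printed beside the unpaired ones. No 2 libraries agreed within counting noise (lowest chi-square over degrees of freedom 62.7). Poisson intervals cover counting error only.

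Named genes follow a rule: the 7 genes, Prdm15, the 8 and 5 genes most like Bnip3, up to 4 genes past the test per list or else the 2 of highest mean, and the 2 highest of each marker list; others are marked in the text or only illustrate a range. A few genes that the rule names are not reported here. The genes and lists were chosen with earlier results of these data known. The limma model, with and without the replicate number, was tried on simulated counts in separate code. The edgeR and DESeq2 fits were not tried in that way. Software was Python 3.11.15 with pandas 2.3.3 and matplotlib 3.10.9, and R 4.3.3 with DESeq2 1.42.0, edgeR 4.0.16 and limma 3.58.1.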

Additional observations from a re-analysis of the deposited data

How the results depend on the processing

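Over 21 alternative settings, 146 of 147 log2 changes of the 7 genes moved by no more than the spread between replicates. That spread is the root of the summed variances of the 2 groups, so it is wider than the SD of either group. The replicate block over all pairs, no filter and a mean of at least 5 cannot move a gene's log2 change. Leaving out any 1 library or any 1 pair can move it, but with 3 libraries per group never by more than that spread. The agreement of all these settings was fixed in advance, and nothing is read from it. Bnip3 ranged from -3.17 to -2.54, Bnip3l from -1.74 to -1.43 and Mgarp from -2.58 to -1.34, below 0 in all 21. The exception was Bcl2l13, at -0.27 without knockout replicates 2 and 3, an alternative chosen after seeing the data. Fundc1, Phb2 and Pink1 had both signs. Of 273 list medians, 244 stayed within the spread between pairs, 10 were lower and 19 higher.

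Counts of calls depended on the fit. The unpaired limma fit called 1 gene over all and 0 pathway genes. With the replicate block it called 92 and 7, with the block but without pair 1 it called 840 and 18, and with the block but without pair 2 or pair 3 it called 0 over all. edgeR called 0 over all, and 39 and 3 with the block; DESeq2 called 110 and 9, and 738 and 21 with the block. Unpaired limma called 0 over all at a pseudocount of 0.1 or 5, without a filter, under quantile normalization, without knockout replicates 2 and 3, and without any 1 library (0 to 0), and it called 2 with a mean of at least 5. The cause was not tested. Mgarp has the fewest reads of the 7 genes, 69 in its lowest library, and so the widest counting error.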
